A study of Mus musculus with 19 samples.

Results

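The genes described here encode the ionotropic and metabotropic glutamate receptors of the mouse hippocampus and the auxiliary subunits that travel with AMPA receptors. They were chosen by name: 31 genes of the 35640 with at least 1 read count, namely 4 AMPA, 7 NMDA, 5 kainate, 1 delta and 6 metabotropic receptor genes, and 8 genes for AMPA auxiliary subunits. Transcripts were counted by RNA sequencing in the hippocampus of 19 female mice on a C57Bl6/J background, 1 library per mouse, in 4 groups: WT (n = 5), A2A (n = 5), APP/PS1 (n = 5) and APP/PS1 A2A (n = 4). APP/PS1 mice are heterozygous for APPswe/PS1dE9, transgenes that give amyloid plaques. A2A mice are heterozygous for TRE-A2A, a codon-optimised mouse adenosine A2A receptor cDNA that is transcribed only where the tTA transactivator is present, and APP/PS1 A2A mice carry both. All mice of all 4 groups, WT included, had received AAV2/5-CBA-tTA in both hippocampi at 3 months of age and were studied at 6 months, so the WT group is vector-injected too. The vector was placed in dorsal CA1, whereas hippocampal RNA was sequenced, so a library can also hold regions away from the injection.

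AMPA receptors carry most of the fast excitatory current at hippocampal synapses, and NMDA receptors, which pass calcium when glutamate and depolarisation coincide, trigger the lasting changes in strength on which spatial memory depends. Kainate receptors act on both sides of the synapse, delta receptors bind synaptic organisers, and metabotropic receptors signal through G proteins. TARPs (the Cacng genes here) and cornichons (Cnih) bind AMPA receptors and set their trafficking and gating. Excess adenosine A2A receptor signalling and amyloid both alter glutamatergic transmission, and the question put to these counts was whether receptor transcripts differed between the genotypes.

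Library totals ranged from 21305902 to 53717373 counts, with a median of 35891080. The amyloid transgenes were visible in the counts: App ranged from 3430.1 to 4473 CPM (counts scaled to the size of the library) in APP/PS1 and from 3282 to 4499 in APP/PS1 A2A, against 1467 to 1919.8 in WT and 1381 to 1746 in A2A. The A2A transgene was built with an optimised coding sequence that differs from that of the endogenous gene, and whether any Adora2a counts come from it was not tested, so Adora2a counts do not check the A2A label. By qPCR, the paper reports transgenic receptor mRNA in A2A and APP/PS1 A2A mice only, and similar endogenous receptor mRNA in all groups. Adora2a ranged from 1.09 to 1.54 CPM in WT, 1.15 to 1.83 in APP/PS1, 0.865 to 9.35 in A2A and 1.27 to 10.3 in APP/PS1 A2A, with A2A mouse DDBM160 and APP/PS1 A2A mouse DDBM152 highest. All genes of 11 marker lists for hippocampal regions, neighbouring tissue and glia were detected, those of CA1 at 346 to 780.3 CPM in sum and those of dentate granule cells at 226 to 596. The sums differed between mice most for choroid plexus, from 58.1 to 10132 CPM.

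AMPA receptor genes were the most abundant class in every group. To compare genes, CPM was divided by the kilobases of exon of each gene (CPM per kb). On this per-length scale the 4 AMPA genes held 38.7% ± 1.14 (SD, n = 5) of the summed level of all 31 genes in WT, the 8 auxiliary genes 29.3% ± 0.861, NMDA genes 13.8% ± 0.690, metabotropic genes 8.72% ± 1.14, kainate genes 8.03% ± 0.479 and Grid1 1.497% ± 0.163. In the other groups the AMPA share on the same scale was 36.5% ± 1.92 in A2A, 38.2% ± 1.56 in APP/PS1 and 40.3% ± 0.7097 in APP/PS1 A2A, and the auxiliary share was 32.4% ± 1.95, 30.7% ± 2.31 and 28.9% ± 1.43. These shares were not tested. Within the classes 1 gene was often ahead. Gria1 made up 60.3% ± 2.21 of the AMPA level of WT mice, Grin1 39.5% ± 1.23 of the NMDA level, Grik5 54.2% ± 4.65 of the kainate level, Grm5 47.6% ± 4.92 of the metabotropic level and Cnih2 46.3% ± 5.87 of the auxiliary level. All these shares depend on the length used. Divided by the longest transcript in place of all exons, the WT mean was 104 in place of 46.0 CPM per kb for Grin1. For Grin2b it was 32.5 in place of 31.5. Gria1, which encodes GluA1, stood first at 198 ± 14.9 CPM per kb, followed by the cornichon gene Cnih2 at 115 ± 19.3, by Gria2, whose edited GluA2 subunit keeps calcium out of the channel, at 84.7 ± 7.53, and by the obligatory NMDA subunit gene Grin1 at 46.0 ± 3.88. On this scale the values of the 5 WT mice did not overlap between any of these 4 neighbours in the order. By the length of the longest transcript in place of all exons, Gria2 stood ahead of Cnih2. The WT means were then 127 CPM per kb for Gria2, 117 for Cnih2 and 104 for Grin1, and the mice of these genes overlapped. From Cacng7 (41.5 ± 6.10 CPM per kb) downwards nearly all neighbours overlapped. The exceptions were Grik3 (8.95 ± 2.59) over Cacng4 (5.01 ± 0.429) and Grm8 (0.988 ± 0.390) over Grin3b (0.0515 ± 0.0116). Grin3b, a glycine-binding NMDA subunit gene, had 0.0333 to 0.234 CPM in the 19 mice and did not pass the filter on low counts, so 30 of the 31 genes were tested.

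**Figure D1:**
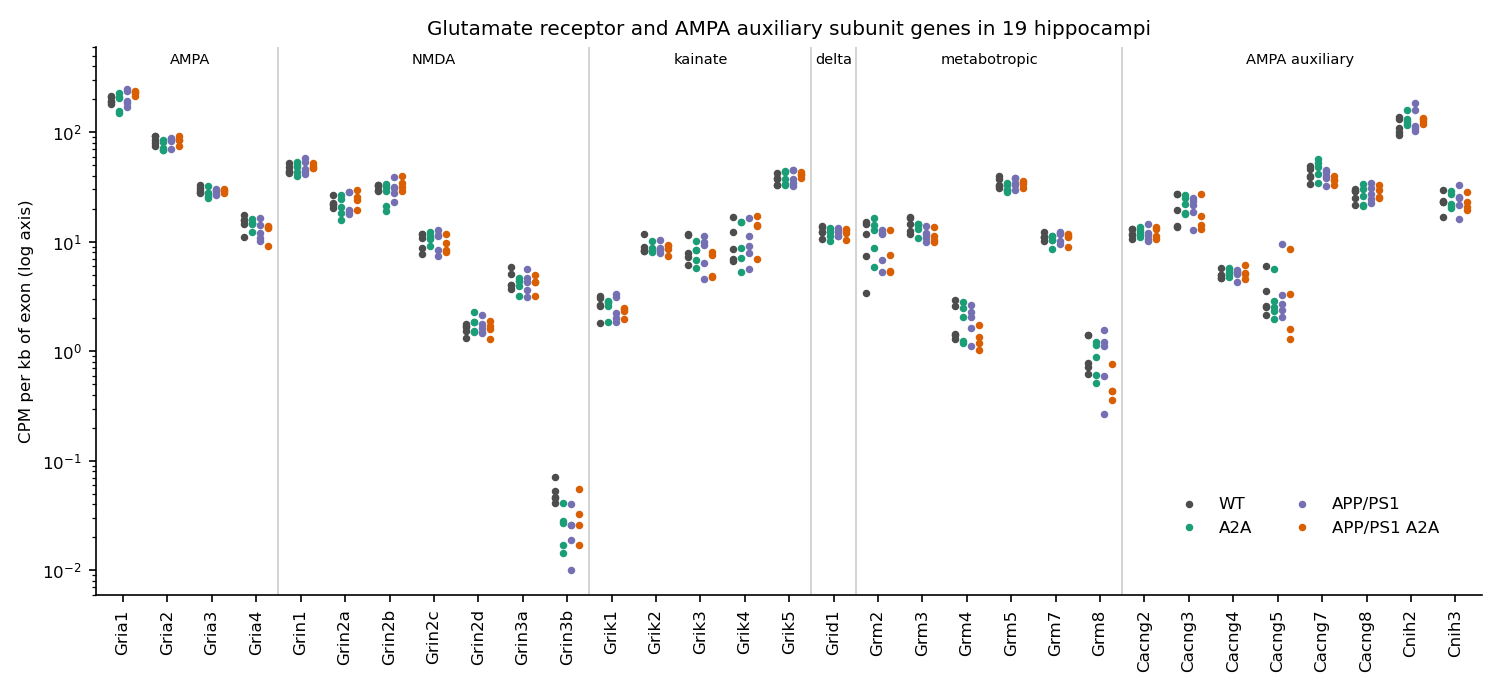
Level of each of the 31 genes in CPM per kilobase of exon (log axis), 1 point per mouse, coloured by group, with classes separated by vertical lines. Gria1 lies highest in WT at 198 ± 14.9 (SD, n = 5) and Grin3b lowest at 0.0515 ± 0.0116, and for every tested gene the points of the compared groups overlap.

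The widest spread between mice was that of a few genes. The highest mouse had 7.47 times the CPM of the lowest for the TARP gene Cacng5, 5.92 times for Grm8, 4.84 times for Grm2 and 3.21 times for Grik4. At the other end, Gria3 and Gria2 varied by 1.33 and 1.34 times over the same 19 mice. The median within-group SD on the log2 CPM scale was 0.24 over the 30 tested members and 0.22 over all 18529 genes tested.

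Grik4, which encodes the high-affinity kainate subunit GluK4 and is known for its expression in CA3, had 39.9, 73.9, 41.3, 101 and 51.7 CPM in WT mice DDBM168, DDBM169, DDBM170, DDBM172 and DDBM173 (chr9:42518135-42944493, minus strand, GRCm38). Its values were 42.5, 52.3, 90.5, 31.9 and 90.3 CPM in A2A mice DDBM160, DDBM161, DDBM162, DDBM164 and DDBM166, and 46.6, 54.5, 34.0, 66.6 and 97.4 in APP/PS1 mice DDBM176, DDBM178, DDBM179, DDBM181 and DDBM182. In APP/PS1 A2A mice DDBM152, DDBM153, DDBM154 and DDBM155 they were 41.4, 82.2, 102 and 85.3 CPM. Every group thus held mice at both ends, and the same order of mice is used for all per-mouse values that follow. The mice with high Grik4 were those with a high sum of 7 marker genes of CA3 and CA2 pyramidal neurons (Bok, Iyd, Nectin3, Rgs14, Amigo2, Map3k15 and Necab2). That sum was 193 to 292 CPM in 10 mice, where Grik4 did not exceed 54.5 CPM, and 362 to 456 CPM in the other 9, where Grik4 was at least 66.6 CPM. The gap between them was 25.1% of the log2 range of the sum, and mice above it were 2 of 5 in WT, A2A and APP/PS1 and 3 of 4 in APP/PS1 A2A. Over all 19 mice, Pearson's r between log2 Grik4 and the log2 marker sum was 0.94 and Spearman's rho 0.91 (permutation test with 100000 resamples, adjusted over 330 pairs, p = 0.000471 and 0.000825, which rest on a raw p of 1e-05, the smallest these permutations can give). Within the 10 mice below the gap r was 0.71, and within the 9 above it 0.39. Removing group means gave 0.95, and leaving out the 2 mice farthest from the median sum gave 0.93. In whole tissue, fewer cells of a type and less RNA per cell cannot be told apart, and whether the share of CA3 in the dissection sets Grik4 was not tested.

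Grm2 and Cacng3 went the other way. Grm2 encodes mGlu2, the Gi-coupled receptor known from dentate granule cell terminals, and Cacng3 the TARP gamma-3. Grm2 had 74.4, 36.4, 70.4, 16.6 and 57.6 CPM in WT, 80.3, 62.4, 29.0, 69.0 and 43.3 in A2A, 58.4, 57.3, 62.5, 26.0 and 33.7 in APP/PS1 and 62.6, 25.8, 26.3 and 37.2 in APP/PS1 A2A. Cacng3 had 75.0, 38.8, 75.5, 37.7 and 54.4 CPM in WT, 62.1, 74.6, 50.4, 68.9 and 49.3 in A2A, 65.5, 60.0, 69.8, 35.6 and 51.5 in APP/PS1 and 76.6, 39.4, 36.1 and 48.1 in APP/PS1 A2A. For both genes the 10 mice below the gap in the CA3 and CA2 sum had higher values than each of the 9 above it. Pearson's r with that sum was -0.89 for Grm2 (rho -0.88) and -0.86 for Cacng3 (rho -0.81), with permutation p adjusted over the 330 pairs of 0.000471 for both r and of 0.000825 and 0.00412 for rho. Without the 2 farthest mice r was -0.90 and -0.88. Below and above the gap r was -0.63 and -0.28 for Grm2, and -0.73 and 0.39 for Cacng3, so that among the 9 mice above the gap the Cacng3 values did not fall with the sum. Grm4 (r = -0.77, rho = -0.77, without the 2 farthest -0.73) and Cacng8, the TARP gamma-8 of hippocampal pyramidal neurons (r = 0.73, rho = 0.72, without the 2 farthest 0.70), also had this sum as their closest marker list. Their adjusted permutation p values were 0.00639 and 0.00803 for r and 0.00577 and 0.0108 for rho. Below and above the gap r was -0.67 and -0.016 for Grm4, which thus did not follow the sum in the 9 mice above it, and 0.78 and 0.49 for Cacng8.

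The start regions of Grik4 and Grm2 are shown because these genes had the largest positive and the largest negative correlation with the CA3 and CA2 sum. Each run holds 250 bases before to 50 bases after the RefSeq start on GRCm38.p6, 5′ to 3′ on the strand of the gene, with GC boxes in capitals, that is GGGCGG on either strand.
Grik4, chr9:42944322-42944621, minus strand: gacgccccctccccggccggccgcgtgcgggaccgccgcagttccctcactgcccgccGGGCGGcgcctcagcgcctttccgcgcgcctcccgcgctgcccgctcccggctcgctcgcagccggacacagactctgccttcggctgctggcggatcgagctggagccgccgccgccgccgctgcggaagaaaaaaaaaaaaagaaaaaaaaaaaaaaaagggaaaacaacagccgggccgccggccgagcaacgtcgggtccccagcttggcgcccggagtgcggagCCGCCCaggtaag
Grm2, chr9:106656060-106656359, minus strand: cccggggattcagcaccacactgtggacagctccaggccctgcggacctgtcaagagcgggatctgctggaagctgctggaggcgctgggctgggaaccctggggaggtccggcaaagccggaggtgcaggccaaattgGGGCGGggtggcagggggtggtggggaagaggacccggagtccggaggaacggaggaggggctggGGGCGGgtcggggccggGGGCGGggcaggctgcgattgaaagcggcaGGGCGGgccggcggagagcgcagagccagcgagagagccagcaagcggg
Grik4 held 2 GC boxes and Grm2 4, and the GC content of the runs was 70.0% and 72.0%, against a median of 52.7% over the 32851 RefSeq promoters. A GC box was found in 35.7% of those promoters and in 14 of the 25 promoters of the 21 members that the RefSeq table holds. The TATA motif TATAAA was in 13.6% of all promoters and among these members only in Grin3b. Motifs were searched on both strands with overlaps counted, and a match is a description of the letters in these windows only.

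**Figure D2:**
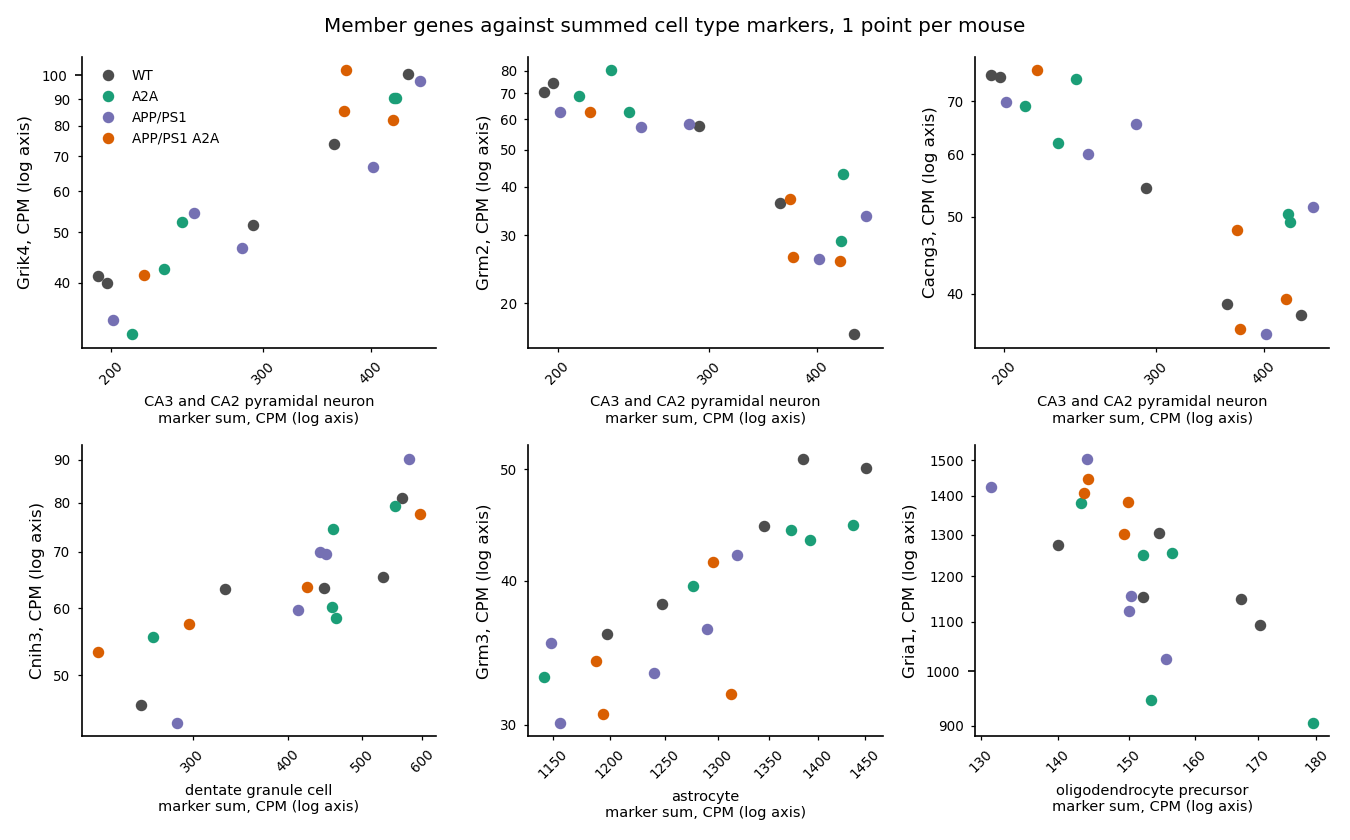
Level of 6 member genes against the summed CPM of the marker list closest to each (both on log axes), 1 point per mouse, coloured by group. Grik4 lies high and Grm2 and Cacng3 lie low in the 9 mice whose CA3 and CA2 marker sum is 362 CPM or more, and each group has mice on both sides.

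Most of the other genes also had a marker list that they followed across mice. Of 330 pairs of 30 members and 11 lists, 69 had an adjusted permutation p under 0.05 for Pearson's r, and 28 of 30 members had at least 1 such pair. The pairs share libraries and scaling, and each member's pair was the closest of 11. No such pairs were computed for the other genes tested, so whether these counts are particular to the members was not tested. Grm3, the mGlu3 gene that astrocytes are known to express, followed the astrocyte sum (r = 0.84, rho = 0.85, without the 2 farthest mice 0.80, adjusted permutation p = 0.000600 and 0.00165). The TARP gamma-7 gene Cacng7 had the same closest list (r = 0.76, rho = 0.78, without the 2 farthest 0.72, adjusted permutation p = 0.00305 and 0.00429). In the 6 mice below the widest gap of the astrocyte sum and the 13 above it, r was 0.096 and 0.76 for Grm3, which did not follow the sum in the lower mice, and 0.44 and 0.59 for Cacng7. Cnih3 followed the dentate granule cell sum (r = 0.84, rho = 0.85, without the 2 farthest 0.81, adjusted permutation p = 0.000471 and 0.00132), as did Grin2c (r = 0.74, rho = 0.73, without the 2 farthest 0.78). Within the 6 mice below the widest gap of that sum and the 13 above it, r was 0.42 and 0.77 for Cnih3, and -0.41 and 0.52 for Grin2c, so that the Grin2c relation did not hold in the lower mice. TARP gamma-4 gene Cacng4 followed the oligodendrocyte sum (r = 0.84, rho = 0.78, without the 2 farthest 0.78).

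Cacng5 had the widest spread of all tested members. Its values were 9.82, 13.7, 8.14, 23.2 and 10.0 CPM in WT, 9.67, 8.88, 11.1, 7.58 and 21.4 in A2A, 10.4, 9.07, 7.90, 36.8 and 12.6 in APP/PS1 and 6.12, 32.8, 4.92 and 12.7 in APP/PS1 A2A. The 2 highest mice were DDBM181 and DDBM153, and the same 2 mice had the highest sums of thalamic markers (Tcf7l2, Lef1, Prkcd, Rora, Plekhg1 and Synpo2), at 195 and 169 CPM against a median of 119.6. The correlation with that list was 0.84 (rho 0.69, adjusted permutation p = 0.000825 and 0.0154), and 0.67 without the 2 farthest mice.

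Of the remaining genes, Gria2 (0.63), Grin2b (0.64), Grid1 (0.72), Grm7 (0.73) and Cacng2 (0.70) had their largest r with the pan-neuronal sum. Gria1 (-0.73), Grin2a (-0.72) and Cnih2 (-0.69) ran against the oligodendrocyte precursor sum, with which Grin2d (0.60) and Grik1 (0.59) ran in parallel. Gria4 (0.69), an AMPA subunit gene known from fast-spiking interneurons, Grik3 (0.70) and Grm8 (0.78) followed the GABAergic interneuron sum, and Grin1 (-0.67) and Grik5 (-0.74) ran against it. Gria3 (-0.58) and Grik2 (-0.70) ran against the oligodendrocyte sum. Within the 7 mice below and the 12 above the widest gap of that sum, r was -0.53 and -0.15 for Gria3, -0.83 and -0.48 for Grik2, and 0.48 and 0.81 for Cacng4. For Grik3, r was 0.37 within the 16 mice above the widest gap of the GABAergic sum. Together with Grin2c and Cacng4, these were 19 pairs, with an adjusted permutation p between 0.000471 and 0.0476 for r and between 0.00540 and 0.0342 for rho. The sizes of rho ran from 0.61 for Grin2b to 0.78 for Cacng4. Without the 2 farthest mice every sign was the same and r was smallest for Grin2d, at 0.41, and largest in size for Grin1, at -0.82. Grin3a and Grm5 had no pair under 0.05, with smallest adjusted permutation p of 0.108 and 0.0583.

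**Figure D3:**
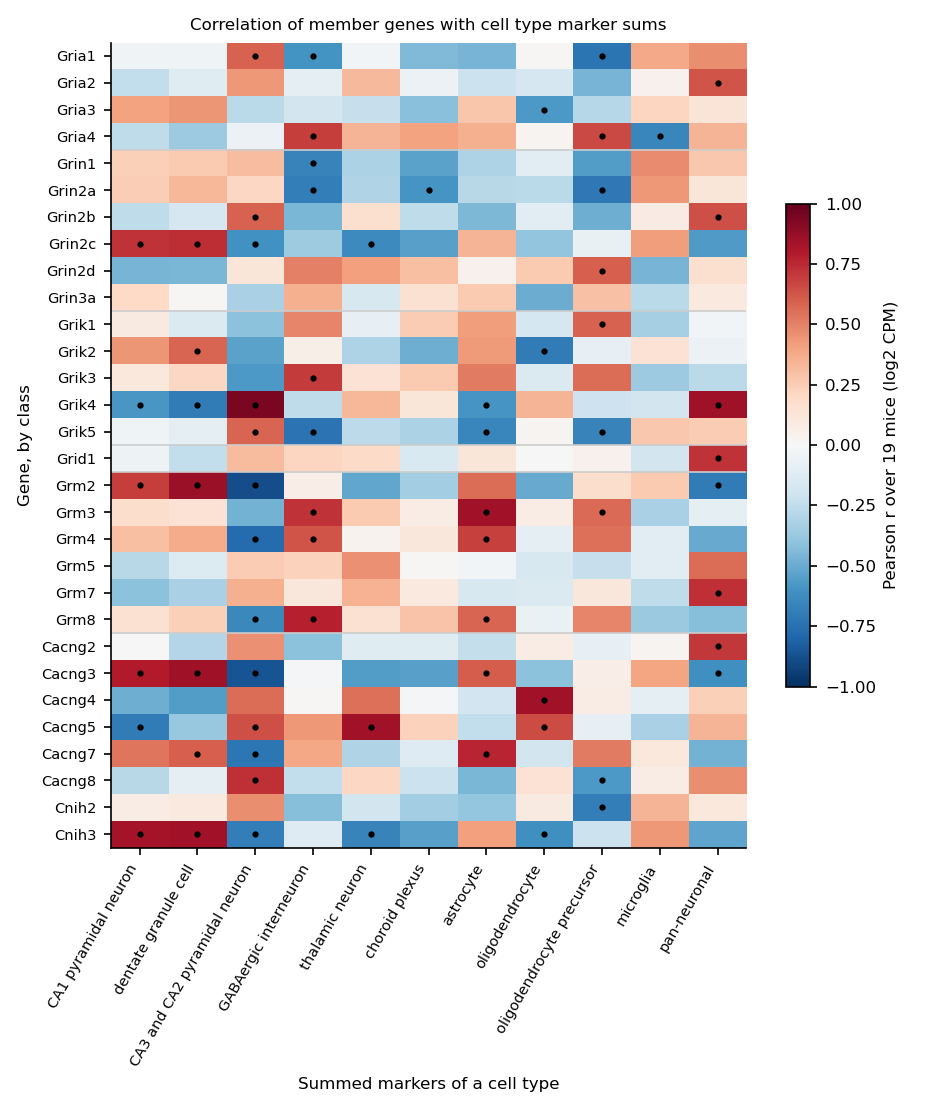
Pearson's r over the 19 mice between log2 CPM of each tested member (rows, by class) and the log2 summed CPM of each marker list (columns). Black points mark the 69 of 330 pairs with an adjusted permutation p under 0.05, and the largest value is that of Grik4 with the CA3 and CA2 list (0.94).

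None of the 30 tested members differed between genotypes under the criteria used by the study, an adjusted p under 0.05 and a log2 fold change over 0.32 in size. Over all 18529 genes tested, edgeR's quasi-likelihood test called 10 (0.054%) in APP/PS1 versus WT, 0 (0.0%) in A2A versus WT, 12 (0.0648%) in APP/PS1 A2A against A2A, 0 (0.0%) in APP/PS1 A2A against APP/PS1 and 0 (0.0%) for the difference between the APP/PS1 effects with and without A2A. An F-test for any difference between the 4 groups called 16 genes (0.0864%), none of them a member. Without adjustment, 1 member in APP/PS1 versus WT, 0 in A2A versus WT, 2 in APP/PS1 A2A against A2A, 1 in APP/PS1 A2A against APP/PS1, 0 for the difference between effects and 1 for any difference had p under 0.05. The shares of all genes under that limit were 2.26%, 3.44%, 7.7%, 2.87%, 3.8% and 4.23%, so that 1 or 2 members in 30 are near the background. DESeq2 also called 0 members in each of the first 5 comparisons, with unadjusted counts of 1, 1, 4, 1 and 0. Of the 35609 genes with a DESeq2 p, 1.59%, 2.14%, 4.61%, 1.86% and 2.34% were under that limit. These genes include those that edgeR's filter on low counts removed, so the DESeq2 shares are not comparable with those of edgeR. Limma-voom called 0, with 1, 0, 3, 0 and 0 beside 2.197%, 3.19%, 7.65%, 2.53% and 3.57% of all genes. For no member did the mice of the compared groups separate without overlap, which 0.421%, 1.12%, 2.82% and 0.712% of all genes did in the 4 pairwise comparisons in the order above. The count of 12 became 93 without A2A mouse DDBM162 and that of 10 became 18 without APP/PS1 mouse DDBM181, with 0 members among them. APP/PS1 A2A mice enter 2 of these comparisons, as do WT, A2A and APP/PS1 mice, so the values set side by side below are not independent.

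In APP/PS1 A2A against APP/PS1, the 95% confidence interval of 23 of 30 members lay within a fold of 1.5 in either direction, and the same held for 24 in APP/PS1 versus WT, 23 in A2A versus WT and 21 in APP/PS1 A2A against A2A. For the difference between the APP/PS1 effects with and without A2A the interval was within that fold for 14 members and wider for 16, so that folds past 1.5 in this difference were not excluded for most of the members. In APP/PS1 A2A against APP/PS1 the 7 wider intervals were those of Cacng3, Cacng5, Grik3, Grik4, Grm2, Grm4 and Grm8. The median log2 fold change of the 30 members was -0.016 in APP/PS1 versus WT, -0.041 in A2A versus WT, -0.015 in APP/PS1 A2A against A2A and -0.035 in APP/PS1 A2A against APP/PS1, beside 0.0039, 0.00098, 0.0030 and -0.0062 over all genes.

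**Figure D4:**
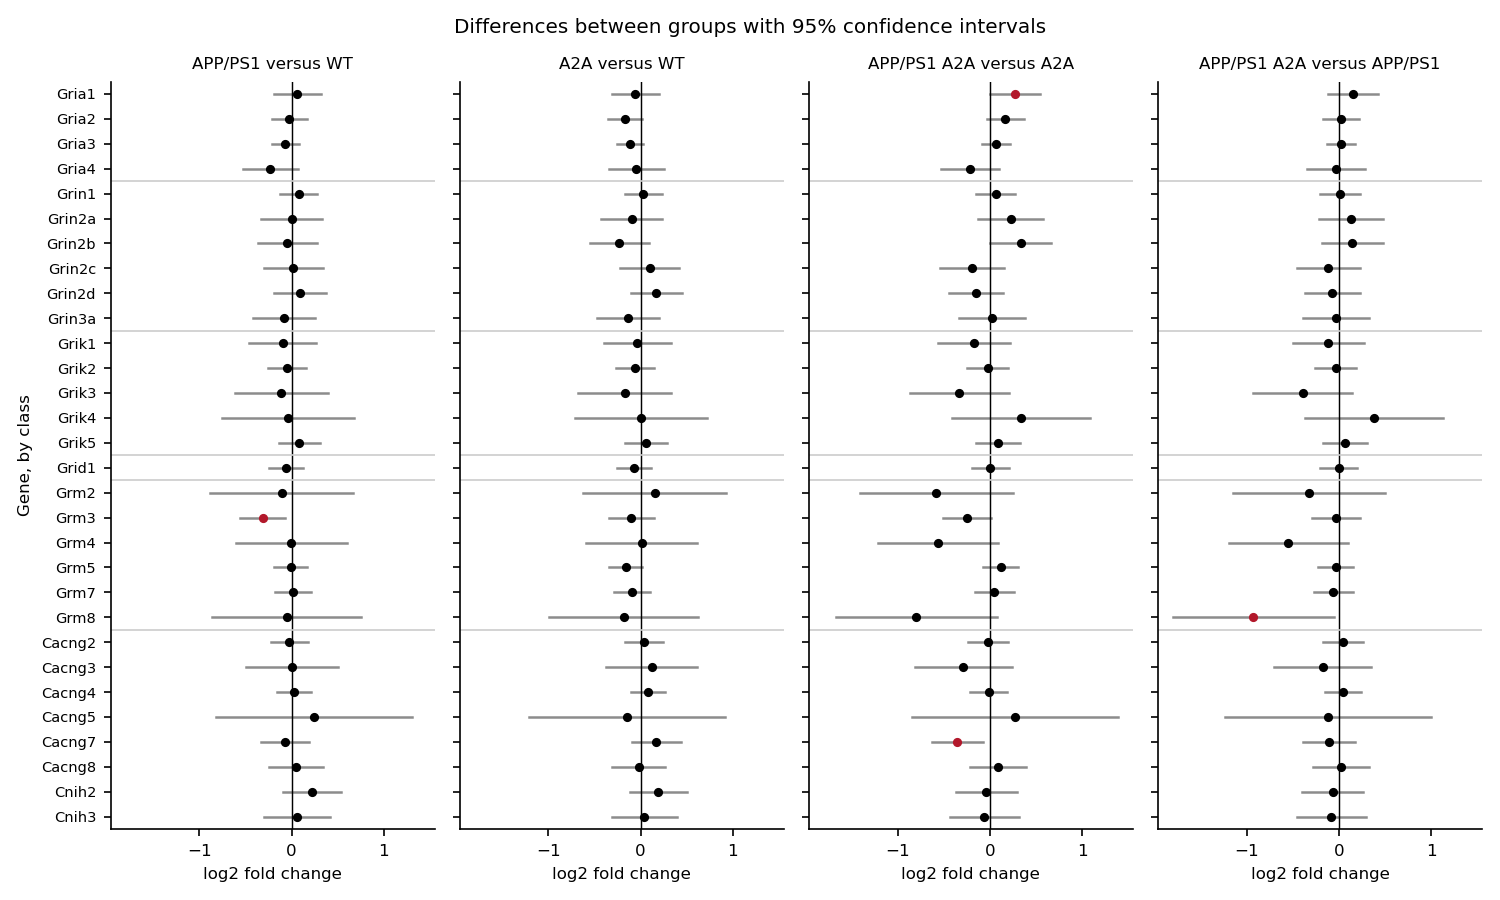
Log2 fold change of the 30 tested members (points) with 95% confidence intervals (lines) in the 4 pairwise comparisons, by class; red points have an unadjusted p under 0.05. The 4 red points are Grm3 in APP/PS1 versus WT, Gria1 and Cacng7 in APP/PS1 A2A against A2A, and Grm8 in APP/PS1 A2A against APP/PS1, and none passed adjustment.

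Of the AMPA receptor genes, Gria1 was the one nearest to a difference. Gria1 (chr11:57011387-57330244, plus strand) had 1153, 1149, 1093, 1304 and 1274 CPM in WT and 905, 1254, 1250.5, 945 and 1381 in A2A. It had 1425, 1156, 1024, 1123 and 1504 CPM in APP/PS1 and 1408, 1385, 1301 and 1445 in APP/PS1 A2A. The 4 APP/PS1 A2A mice lay close together, and only APP/PS1 mice DDBM176 and DDBM182 reached their upper part, while A2A mice DDBM160 and DDBM164 were lowest of all. The log2 fold change was 0.27 (SE 0.13, unadjusted p = 0.0489, adjusted p = 0.644, edgeR quasi-likelihood test) against A2A and 0.15 (SE 0.13, adjusted p = 0.9999) against APP/PS1. As a percent difference, the 95% confidence interval of the latter ran from -7.87% to 34.0%, and intervals below are given in the same way. Against A2A the log2 fold change was 0.20 without DDBM160 and 0.21 without DDBM164.

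Gria2 and Gria3 were the steadiest members. Gria2 (chr3:80681450-80802835, minus strand) had 1427, 1173, 1237, 1441 and 1307 CPM in WT, 1073, 1267, 1117, 1076 and 1315 in A2A, 1297, 1349, 1099.9, 1346 and 1389 in APP/PS1 and 1172, 1319, 1331 and 1442 in APP/PS1 A2A. The highest A2A mouse stood below the 2 highest mice of each other group, yet the ranges overlapped, and the log2 fold change of A2A versus WT was -0.17 (SE 0.089, adjusted p = 0.964 by edgeR). Gria3 (chrX:41400854-41678601, plus strand) had 328, 275, 308, 281 and 293 CPM in WT, 247, 319.6, 256, 276 and 274 in A2A, 294, 288, 266, 268 and 300.5 in APP/PS1 and 288, 275, 287 and 297 in APP/PS1 A2A, with the 4 groups superimposed. In APP/PS1 A2A against APP/PS1 the log2 fold change was 0.022 (SE 0.094) for Gria2 and 0.017 (SE 0.073) for Gria3, intervals from -11.5% to 16.5% and from -8.95% to 12.5%. Both signs turned when DDBM179 was left out (-0.032 and -0.0051), that of Gria2 also without DDBM155 (-0.020) and that of Gria3 without DDBM181 (-0.0021). Gria4, the least abundant AMPA gene per kilobase, had group means of 94.2 ± 15.4 CPM in WT, 91.2 ± 8.94 in A2A, 80.4 ± 16.4 in APP/PS1 and 78.5 ± 14.0 in APP/PS1 A2A (SD). Its log2 fold change was -0.23 (SE 0.14) in APP/PS1 versus WT. The median log2 fold change of the 4 genes was -0.045, -0.086, 0.12 and 0.020 in the order of comparisons used above.

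**Figure D5:**
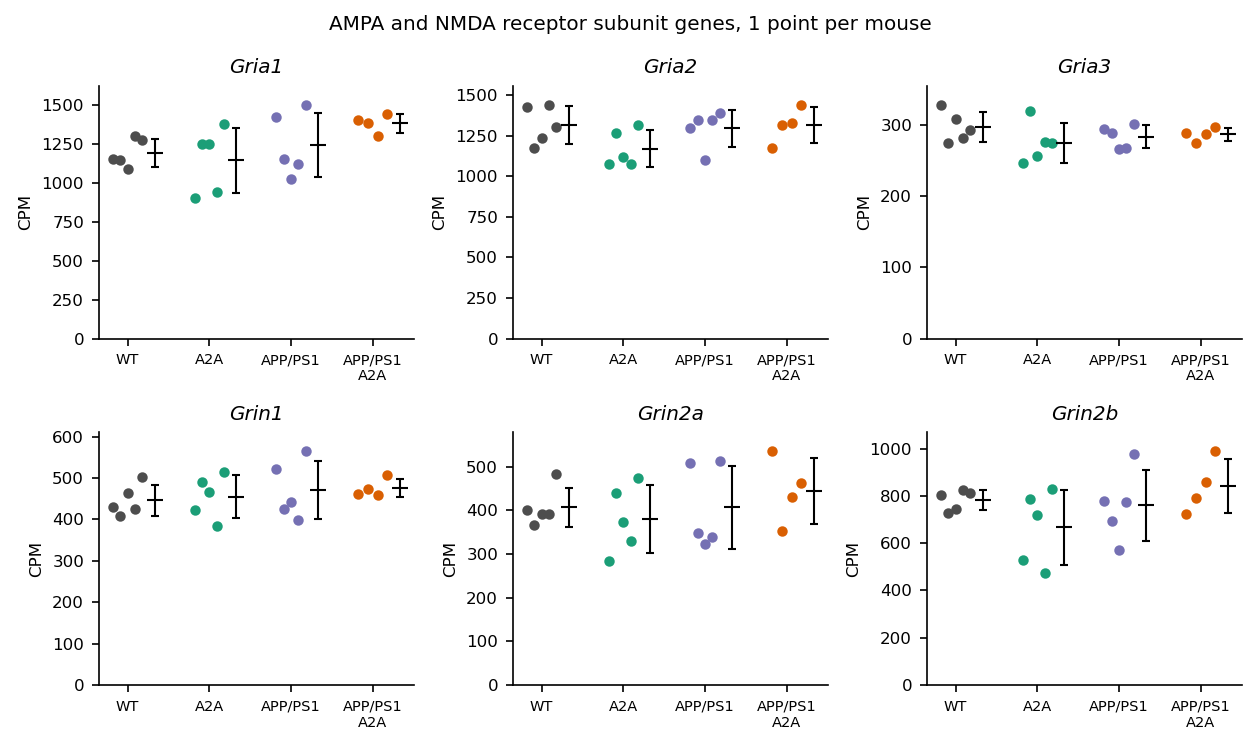
CPM of 3 AMPA and 3 NMDA receptor subunit genes, 1 point per mouse, with the mean and SD of each group beside its points (n = 5, 5, 5 and 4), on axes that start at 0. The groups overlap for all 6 genes, and the means of Gria1 run from 1147 CPM in A2A to 1385 in APP/PS1 A2A.

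No NMDA receptor gene was called either. Grin1 (chr2:25291181-25319187, minus strand), whose product is part of every NMDA receptor, had 431, 408, 465, 425 and 503 CPM in WT, 422, 489.8, 466, 385 and 514 in A2A, 523, 425, 443, 399 and 565 in APP/PS1 and 461, 475, 459 and 507 in APP/PS1 A2A. All 4 APP/PS1 A2A mice fell inside the range of the APP/PS1 mice, and the log2 fold change between them was 0.013 (SE 0.10, interval from -13.0% to 17.1%). Its sign turned without DDBM155 (-0.014), DDBM178 (-0.021), DDBM179 (-0.0082) or DDBM181 (-0.041).

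Grin2a and Grin2b encode the glutamate-binding GluN2A and GluN2B subunits, which set how long the channel stays open. Grin2a (chr16:9567898-9995560, minus strand) had 402, 366, 393, 392 and 483 CPM in WT, 283, 440.1, 373, 329.7 and 476 in A2A, 509, 349, 324, 340.2 and 513 in APP/PS1 and 536, 352, 431 and 462 in APP/PS1 A2A. The highest mice were DDBM152, DDBM182 and DDBM176 and the lowest DDBM160. High and low values occurred within single groups, from 324 to 513 CPM in APP/PS1 and from 283 to 476 in A2A. Grin2b (chr6:135713233-136173511, minus strand) had 803, 727, 744, 825 and 814 CPM in WT, 528, 785, 718, 472 and 831 in A2A, 779, 693, 571, 776 and 977 in APP/PS1 and 722, 792, 858 and 989 in APP/PS1 A2A. A2A mice DDBM164 and DDBM160, low for Gria1, were also lowest for Grin2b. Against APP/PS1, APP/PS1 A2A mice had log2 fold changes of 0.13 (SE 0.17) and 0.15 (SE 0.16), intervals from -14.2% to 39.6% and from -12.3% to 39.6%. Against A2A they were 0.23 (adjusted p = 0.817) and 0.33 (SE 0.16, unadjusted p = 0.0506, adjusted p = 0.650, edgeR). Grin2c, Grin2d and the glycine-binding subunit gene Grin3a had log2 fold changes between -0.19 and 0.17 over the 4 pairwise comparisons. The class medians were 0.0098, -0.034, 0.043 and -0.0082.

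Ratios between subunit genes within a library, which do not depend on scaling, were compared next. The ratio of Gria1 to Gria2 counts was 0.910 ± 0.0711 in WT, 0.976 ± 0.115 in A2A, 0.961 ± 0.124 in APP/PS1 and 1.06 ± 0.1003 in APP/PS1 A2A (SD). The ratio of Grin2a to Grin2b counts was 0.520 ± 0.0449, 0.577 ± 0.0704, 0.537 ± 0.0794 and 0.539 ± 0.137 in the same order. The ratio of Grin2a to Grin1 counts had means from 0.830 in A2A to 0.939 in APP/PS1 A2A. None of the 12 comparisons passed adjustment in a two-sided exact permutation test over mice. The smallest adjusted p was 0.531 and the smallest raw exact p 0.143, for Grin2a to Grin1 in A2A versus WT, where 5 mice against 5 allow a p of 0.00794.

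Among the kainate receptor genes the widest intervals were those of Grik3 and Grik4. Grik3 (chr4:125490700-125714173, plus strand), which encodes the low-affinity subunit GluK3, had 104, 71.5, 106, 55.5 and 64.5 CPM in WT, 92.0, 75.5, 61.0, 75.7 and 51.6 in A2A, 57.0, 101, 89.6, 83.0 and 41.0 in APP/PS1 and 43.2, 71.8, 43.7 and 67.4 in APP/PS1 A2A. APP/PS1 A2A mice DDBM152 and DDBM154 were among the lowest, but APP/PS1 mouse DDBM182 was lower still. For APP/PS1 A2A against APP/PS1 the log2 fold change was -0.39 (SE 0.26, adjusted p = 0.9999 by edgeR). That of Grik4, whose values are given above, was 0.38 (SE 0.36, interval from -22.8% to 119%). Grik1, Grik2 and Grik5, the genes for GluK1, GluK2 and the high-affinity GluK5, had log2 fold changes from -0.17 to 0.089 over the 4 comparisons. The class medians were -0.049, -0.036, -0.022 and -0.036.

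Grid1, the delta receptor gene whose product GluD1 binds cerebellins, had 81.9, 73.7, 73.9, 83.7 and 63.7 CPM in WT, 66.8, 79.9, 77.4, 61.0 and 73.0 in A2A, 72.7, 80.4, 66.8, 66.9 and 74.0 in APP/PS1 and 61.7, 78.0, 71.1 and 76.9 in APP/PS1 A2A. The groups were superimposed. Its log2 fold change was -0.0043 (SE 0.094, interval from -13.0% to 14.3%) in APP/PS1 A2A against APP/PS1, and between -0.073 and 0.0058 in the other 3 comparisons.

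All 6 metabotropic receptor genes had lower means in APP/PS1 A2A than in APP/PS1, with a median log2 fold change of -0.19, where 52.3% of all genes were lower. Over the alternative settings and left-out mice this median stayed between -0.28 and -0.073. Single genes differed: the log2 fold change was -0.036 (SE 0.12) for Grm3, -0.035 (SE 0.090) for Grm5 and -0.060 (SE 0.10) for Grm7. Those of Grm2, Grm4 and Grm8 were farther from 0. Grm2 and Grm4 ran against the CA3 and CA2 marker sum, which was 319 ± 107 CPM in APP/PS1 and 348 ± 89.6 in APP/PS1 A2A (SD). The part of that sum in their values was not tested. In the other comparisons the class medians were -0.031 in APP/PS1 versus WT, -0.099 in A2A versus WT and -0.41 in APP/PS1 A2A against A2A. Grm8 and Grm3 came nearest to a difference. Grm8 (chr6:27275119-28135178, minus strand), a presynaptic Gi-coupled receptor gene of group III, had 13.9, 7.14, 14.0, 6.08 and 7.77 CPM in WT, 11.3, 8.74, 6.01, 11.9 and 5.10 in A2A, 5.93, 15.6, 12.0, 11.1 and 2.63 in APP/PS1 and 4.31, 7.59, 3.52 and 4.31 in APP/PS1 A2A. Of the 4 APP/PS1 A2A mice, 3 were below every other mouse except APP/PS1 mouse DDBM182, the lowest of all 19, and DDBM153 lay among the others. The log2 fold change of APP/PS1 A2A against APP/PS1 was -0.93 (SE 0.42, unadjusted p = 0.0380, adjusted p = 0.9999, edgeR quasi-likelihood test), and -0.68 without DDBM178. Limma-voom gave -0.64 (unadjusted p = 0.182), and edgeR with the compared groups alone gave -0.92 (unadjusted p = 0.0667). EdgeR with the log2 ratio of the CA3 and CA2 to the dentate marker sum as a covariate gave -0.74 (unadjusted p = 0.0741). Grm8 followed the GABAergic interneuron marker sum, which was 649 to 848 CPM in APP/PS1 A2A and 657 to 956 CPM in APP/PS1 (all 7 genes detected), and the part of that sum in the Grm8 values was not tested.

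Grm3 (chr5:9485541-9725170, minus strand) had 51.1, 38.2, 50.1, 44.7 and 36.0 CPM in WT and 43.4, 44.7, 33.0, 44.2 and 39.6 in A2A. It had 33.3, 42.1, 36.3, 35.3 and 30.1 CPM in APP/PS1 and 31.9, 41.5, 34.1 and 30.6 in APP/PS1 A2A. WT mice DDBM168, DDBM170 and DDBM172 and A2A mice DDBM160, DDBM161 and DDBM164 were above every mouse with APP/PS1, and the remaining WT and A2A mice lay among them. The log2 fold change was -0.31 (SE 0.12, unadjusted p = 0.0157, adjusted p = 0.9998, edgeR) in APP/PS1 versus WT and -0.25 (SE 0.12, adjusted p = 0.679) in APP/PS1 A2A against A2A, and the difference between these 2 effects was 0.066 (SE 0.17). Without WT mouse DDBM168 the former was -0.25. The sum of the 5 astrocyte markers, which Grm3 followed, was 1197 to 1451 CPM in WT, 1143 to 1437 in A2A, 1148 to 1319 in APP/PS1 and 1187 to 1313 in APP/PS1 A2A, and its part in the Grm3 values was not tested. Grm5, the Gq-coupled receptor gene and the most abundant of the class per kilobase, had means of 357 ± 37.4, 319 ± 26.5, 355 ± 37.8 and 347 ± 21.5 CPM in WT and A2A and in APP/PS1 without and with A2A (SD). Grm7, a presynaptic receptor gene of group III, had 65.2 ± 4.80, 61.0 ± 6.56, 65.8 ± 7.58 and 63.1 ± 7.55 CPM in the same order. Grm2 and Grm4 had log2 fold changes of -0.33 (SE 0.39) and -0.55 (SE 0.31) in APP/PS1 A2A against APP/PS1.

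The auxiliary subunit genes had medians of 0.037, 0.061, -0.026 and -0.074 on the log2 fold change scale, the last of which became 0.051 without DDBM176. Cacng7 (chr7:3332955-3368221, plus strand) had the smallest adjusted p of any member in any pairwise comparison. Its values were 112, 98.1, 119.9, 81.3 and 96.2 CPM in WT, 139, 119, 83.7, 128 and 102 in A2A, 97.1, 106, 109, 78.7 and 92.7 in APP/PS1 and 90.3, 97.5, 80.0 and 90.02 in APP/PS1 A2A. A2A mice DDBM160, DDBM161, DDBM164 and DDBM166 were above all APP/PS1 A2A mice, whereas A2A mouse DDBM162 was among them. The log2 fold change of APP/PS1 A2A against A2A was -0.35 (SE 0.13, unadjusted p = 0.0171, adjusted p = 0.457, edgeR), and -0.27 without DDBM160. With the log2 ratio of the CA3 and CA2 to the dentate marker sum as a covariate it was -0.24. Against APP/PS1 it was -0.11 (SE 0.13). The astrocyte sum, the closest list of Cacng7, was 1143 to 1437 CPM in A2A and 1187 to 1313 in APP/PS1 A2A. Its part in the Cacng7 values was not tested.

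Cnih2 (chr19:5092871-5098418, minus strand), the cornichon gene that stood next to Gria1 per kilobase, had 138, 151, 129, 181 and 189 CPM in WT, 159, 182, 172, 167 and 220.2 in A2A, 255, 142, 148, 157 and 218 in APP/PS1 and 181, 174, 183 and 164 in APP/PS1 A2A. APP/PS1 mice DDBM176 and DDBM182 were high and the remaining 3 lay with WT. The log2 fold change was 0.22 (SE 0.15, adjusted p = 0.9998 by edgeR) in APP/PS1 versus WT and -0.067 (SE 0.16, interval from -24.1% to 20.04%) in APP/PS1 A2A against APP/PS1. In this last comparison Cacng2, the stargazin gene, had 0.042 (SE 0.10), Cacng4 0.041 (SE 0.094), Cacng8 0.020 (SE 0.15), Cnih3 -0.081 (SE 0.18), Cacng3 -0.17 (SE 0.25) and Cacng5 -0.12 (SE 0.53).

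Genes whose products hold, cluster or feed these receptors were listed by function and tested in the same edgeR fit. None of the 18 other auxiliary and clustering genes, 22 scaffold and postsynaptic enzyme genes or 6 glutamate transporter genes was called in any comparison. In APP/PS1 A2A against APP/PS1 the 18 genes split into 9 higher and 9 lower (median 0.0014), the 22 into 14 and 8 (median 0.019) and the 6 into 3 and 3 (median 0.017). In APP/PS1 A2A against APP/PS1, Nptx2 was the only one of these 46 genes with an unadjusted p under 0.05 by edgeR. Of all genes 2.87% were under that limit there, so that 1 in 46 is near the background. In APP/PS1 A2A against A2A that share was 7.7%. Nptx2 encodes a secreted pentraxin that clusters AMPA receptors and is known to follow neuronal activity. Nptx2 had a log2 fold change of 0.57 (SE 0.22, unadjusted p = 0.0188, adjusted p = 0.9999, edgeR) in APP/PS1 A2A against APP/PS1 and 0.70 (SE 0.22, unadjusted p = 0.00553, adjusted p = 0.299) in APP/PS1 A2A against A2A. For its receptor gene Nptxr the log2 fold change of the former comparison was 0.42 (SE 0.25). It was -0.21 (SE 0.13) for Dlgap3, a scaffold gene of the postsynaptic density. The vesicular glutamate transporter genes gave 0.15 (SE 0.17) for Slc17a7, the main one of hippocampal pyramidal cells, and -1.46 (SE 0.74) for Slc17a6, the one known from thalamus. The smallest adjusted p of the 6 transporter genes in that comparison was 0.9999 (edgeR). The thalamic marker sum was 99.8 to 195 CPM in APP/PS1 and 111 to 169 in APP/PS1 A2A, and its part in the Slc17a6 values was not tested.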

How the data were processed

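Hippocampal RNA of 19 mice was sequenced, 1 library per mouse, from polyA-selected stranded libraries. Per the study's methods and the submitters' processing notes, single reads of 50 bases were trimmed with cutadapt 1.10, reads matching rRNA were removed with bowtie 2.2.8, the rest was aligned to mm10 (GRCm38) with STAR 2.5.3a, and the authors deposited raw gene counts made by HTSeq 0.6.1p1 in union mode with Ensembl 94. Counts of overlapping genes and of similar copies are left out by such counting. The 9 deposited columns of the authors' own comparisons (log2 fold changes and p-values) were not used. The authors' contrasts, their thresholds (adjusted p under 0.05, log2 fold change over 0.32 in size) and genotype labels were kept. The labels give no batch or date.

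Totals ranged from 21305902 to 53717373 counts. Genes with 10 counts by edgeR's filter (18529) were fitted over all 4 groups with edgeR 4.0.16 in R 4.3.3 (TMM scaling, quasi-likelihood F-test, Benjamini-Hochberg adjustment over all genes). CPM was scaled by TMM, and the log2 CPM behind the within-group SD, ratios, marker relations and Dixon's test had no prior count. Levels per kilobase used union exon lengths of GENCODE M21 (GRCm38). Relations across mice used 100000 permutations, and ratios an exact permutation test (scipy 1.17.1). Alternatives were DESeq2 1.42.0, limma-voom (limma 3.58.1), median-ratio scaling, other filters, fits on the compared groups only and each mouse left out. Promoters came from RefSeq (GRCm38.p6), which matched 21 of 31 members. All 31 genes are named, with values per mouse for Gria1, Gria2, Gria3, Grin1, Grin2a and Grin2b, for the 2 of smallest unadjusted p in each class (delta: 1) and for genes singled out after their values were seen (Grik4, Grm2, Cacng3 and Cacng5 in the account of markers). The 2 of smallest p in APP/PS1 A2A versus APP/PS1 are named from each of the 3 other lists, except 1 that is not reported here. Members and lists were chosen with earlier results of these data known. P-values measure the spread between mice.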

Additional observations from a re-analysis of the deposited data

Results flagged for a closer look

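In 4 of 124 sets of 4 or 5 mice, 1 for each member and group, 1 mouse stood apart from the others by Dixon's test at the 95% level, which chance gives in about 1 of 20 sets. Gria4 was 57.6 CPM in APP/PS1 A2A mouse DDBM152, with the nearest mouse of that group at 84.1 CPM. Grik1 was 12.5 CPM in A2A mouse DDBM166, with the nearest at 17.4 CPM. Grik2 was 155 CPM in WT mouse DDBM168, with the nearest at 118 CPM. Grm7 was 50.01 CPM in A2A mouse DDBM164, with the nearest at 61.2 CPM. No member's APP/PS1 effect differed between the backgrounds with and without A2A at an adjusted p under 0.05 in edgeR (30 tested), and without adjustment edgeR, DESeq2 and limma-voom had 0 members under that limit.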

How the results depend on the processing

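No member was called in any comparison under any alternative. The number of members at an unadjusted p under 0.05 varied from 0 to 2 in APP/PS1 versus WT, 0 to 3 in A2A versus WT, 0 to 6 in APP/PS1 A2A versus A2A, 0 to 3 in APP/PS1 A2A versus APP/PS1 and 0 to 2 for the difference between effects. In these comparisons the settings with the most members had the following shares of all genes under that limit: 2.76% to 2.93% for the 2 members (no filter, or without DDBM173 or DDBM178), 3.75% for the 3 (without DDBM161), 9.74% for the 6 (without DDBM166), 5.56% for the 3 and 4.63% for the 2 (both without DDBM182). Over all genes, the 12 called by edgeR in APP/PS1 A2A versus A2A became 162 with DESeq2 (35640 genes entered, 35609 with a p). They became 93 without A2A mouse DDBM162 and 6 with at least 10 counts in every mouse. The 10 in APP/PS1 versus WT became 21 with DESeq2 and 18 without DDBM181. They became 4 with at least 10 counts in every mouse and 5 with the compared groups alone. A covariate for the log2 ratio of the CA3 and CA2 to the dentate marker sum, chosen after seeing the data, gave 18 and 12. DESeq2 called 1 gene each in A2A versus WT and for the difference between effects. The causes were not tested.

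In APP/PS1 A2A versus APP/PS1, leaving out 1 mouse turned the sign of Gria2 (-0.020 without DDBM155, -0.032 without DDBM179), Gria3 (-0.0051 without DDBM179, -0.0021 without DDBM181) and Grin1 (-0.014, -0.021, -0.0082 and -0.041 without DDBM155, DDBM178, DDBM179 and DDBM181), while the highest values were 0.075, 0.039 and 0.087. The log2 ratio of Grin2a to Grin2b turned in the same comparison to 0.045 without DDBM155, 0.0099 without DDBM154, 0.068 without DDBM153, 0.059 without DDBM176 and 0.0086 without DDBM179, with -0.18 at the other end without DDBM152, and in APP/PS1 versus WT to -0.033 without DDBM176, with 0.11 at the other end without DDBM181. The auxiliary median moved to 0.051 without DDBM176. All these values lay close to 0 and none passed a test. Leaving out 1 mouse gave 0.089 to 0.23 for Gria1, 0.031 to 0.23 for Grin2a and 0.059 to 0.25 for Grin2b in that comparison, -0.38 to -0.25 for Grm3 in APP/PS1 versus WT and -1.22 to -0.68 for Grm8. The other 818 values of single results and 182 counts of called members kept their direction and side of the threshold. No paired analysis was possible because each mouse carries its own name and no number is shared between groups. Folds past 1.5 were not excluded for 6 to 9 members in the pairwise comparisons or for 16 in the difference between effects.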
